A study of Mus musculus with 6 samples.

Results

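Tspo, the genes of its known partners and the voltage-dependent anion channels (VDACs) were examined in mouse peritoneal macrophages. The 6 genes are Tspo, Dbi, Acbd3, Vdac1, Vdac2 and Vdac3, taken by gene symbol from a table of 54532 genes. All 6 passed the filter on low values, as did 9794 genes in all. Tspo was chosen by its measured values in these same libraries, because the study names it among the genes changed in both of its comparisons. Its levels and fold changes are therefore given as a description, with no test. Vdac3 is also on the study's list of DEGs for Model vs. Control, so that its test in that comparison is not independent evidence. The other genes were added for what is known of their proteins, but with earlier results of these data known.

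TSPO, the translocator protein, lies in the outer mitochondrial membrane, where it binds cholesterol and porphyrins, and it is widely used as an imaging target for activated macrophages and microglia. Dbi encodes the acyl-CoA-binding protein, also called diazepam-binding inhibitor, whose peptides are ligands of TSPO. Acbd3 encodes a Golgi scaffold protein that also binds TSPO. VDAC1, VDAC2 and VDAC3 are the pores through which ATP, ADP and other metabolites cross the outer mitochondrial membrane, and TSPO is found in complexes with VDAC.

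The cells were primary macrophages from the peritoneum of wild-type male C57BL/6J mice aged 6 to 8 weeks, drawn to the peritoneal cavity with thioglycolate, an irritant that recruits monocytes. Control cells were left untreated. Model cells received LPS, a bacterial cell wall component, at 500 ng/mL for 5.5 h and then 2 mM ATP for 0.5 h. In the MUS group, LPS and ATP were given as in Model, and 50 μM muscone, the macrocyclic ketone of musk, was added 0.5 h before ATP. Muscone without LPS and ATP was not among the groups analysed, and each group held 2 poly-A RNA libraries. Nothing in the sources used here says whether the 2 libraries of a group came from separate animals or cultures, so that p-values measure the spread between these samples only, which may be technical.

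Levels are FPKM, fragments per kilobase of gene length on a per-million scale, as deposited. Each library held 15526321 to 17135442 fragments on genes, and each of the 6 genes had at least 755 fragments in every library. The deposited per-million scale was 1.34 and 1.45 times the fragment total in the Control libraries, against 0.909 to 0.998 times in the Model and MUS libraries. Values divided by the fragment totals themselves are called fragment-total FPKM below. Going from deposited to fragment-total FPKM moved the median log2 fold change of all genes tested from 0.04 to -0.40 in Model vs. Control and from 0.04 to -0.39 in MUS vs. Control. It hardly moved MUS vs. Model, where the median was 0.01 and 0.02. Model replicate 1 stood apart in the number of genes with at least 1 fragment, 24906 against 17406 to 19200 in the other libraries. All 8 macrophage markers had a mean of at least 1 FPKM, whereas 0 of 7 T cell and 0 of 6 mast cell markers, 1 of 6 B cell, 1 of 5 eosinophil and 2 of 6 mesothelial or fibroblast markers did. Of 8 neutrophil markers 1 did, and S100a9, Ly6g and Elane were at 0. The summed neutrophil markers were 13.8 to 30.9 FPKM in Control, 57.7 to 112 in Model and 50.9 to 64.6 in MUS, and their part in the results below was not tested. Most of the sum came from the 1 marker that reached 1 FPKM, so that it does not show a rise across the set. Fewer cells of a type and less RNA per cell cannot be told apart in bulk libraries.

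The reads of the VDAC genes have to be separated by sequence, and a stretch of 60 bases of coding sequence shows how far this is possible. The stretches below were aligned to Vdac3, and capitals mark bases that differ from it (GENCODE M21 transcripts, 5′ to 3′).
Vdac3: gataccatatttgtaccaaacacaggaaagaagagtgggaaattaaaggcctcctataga
Vdac3-ps1: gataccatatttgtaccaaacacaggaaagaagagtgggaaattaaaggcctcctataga
Vdac2: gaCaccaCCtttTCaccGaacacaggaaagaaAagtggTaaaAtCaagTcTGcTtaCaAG
Vdac1: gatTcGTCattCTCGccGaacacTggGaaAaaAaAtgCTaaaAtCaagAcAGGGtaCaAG
The stretch spans bases 301 to 360 of the longest open reading frame of Vdac3. Vdac2 differed from it at 17 of 60 bases and Vdac1 at 26, whereas the pseudogene Vdac3-ps1 differed at 0. Over the whole aligned coding sequence, identity with Vdac3 was 73.7% for Vdac2 and 68.1% for Vdac1, and 99.5% for Vdac3-ps1. Of the stretches of 50 bases in Vdac3 transcripts, 12.8% also occurred in transcripts of another gene, 11.8% in those of Vdac3-ps1 and 4.65% in those of Gm7591, which had a mean of 7.09 FPKM. The share found in any other gene was 4.06% for Vdac2, 1.41% for Vdac1, 0.978% for Dbi, 0.877% for Acbd3 and 0.400% for Tspo. Fragments of Vdac3, Vdac3-ps1 and Gm7591 can thus have been assigned to one another, and the values of Vdac3-ps1 are given where Vdac3 is described.

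Tspo (ENSMUSG00000041736, GRCm38 chromosome 15, 83563592 to 83574203, plus strand) is the shortest of the 6 genes by the gene length used for FPKM, 1051 bases. Its level was 41.6 and 47.0 FPKM in the Control libraries, 271 and 155 in the Model libraries and 56.2 and 91.6 in the MUS libraries. Both Model libraries lay above all others, and both MUS libraries lay between Control and Model. The group means were 44.3 ± 3.80 FPKM in Control, 213 ± 82.1 in Model and 73.9 ± 25.0 in MUS (SD, n = 2 each). These values rest on 893 to 4025 fragments per library.

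The log2 fold change of Tspo, on the scale of log2(FPKM + 1), was 2.19 (SE 0.40) in Model vs. Control and -1.50 (SE 0.40) in MUS vs. Model, and 0.69 (SE 0.40) remained in MUS vs. Control. Within batch 1, which holds replicate 1 of each group, the difference was 2.68 in Model vs. Control and -2.25 in MUS vs. Model. Within batch 2 it was 1.70 and -0.75. Both batches went the same way, with the larger differences in the batch that holds Model replicate 1. Without that library the log2 fold changes were 1.79 and -1.10.

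The height of Tspo in MUS relative to Control depended on the scale. In fragment-total FPKM the Control libraries held 60.4 and 62.7, the Model libraries 247 and 155, and the MUS libraries 52.4 and 90.3. The MUS libraries then lay on either side of Control, and the log2 fold change in MUS vs. Control was 0.16. The values of Model stayed above those of both other groups on this scale.

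**Figure D1:**
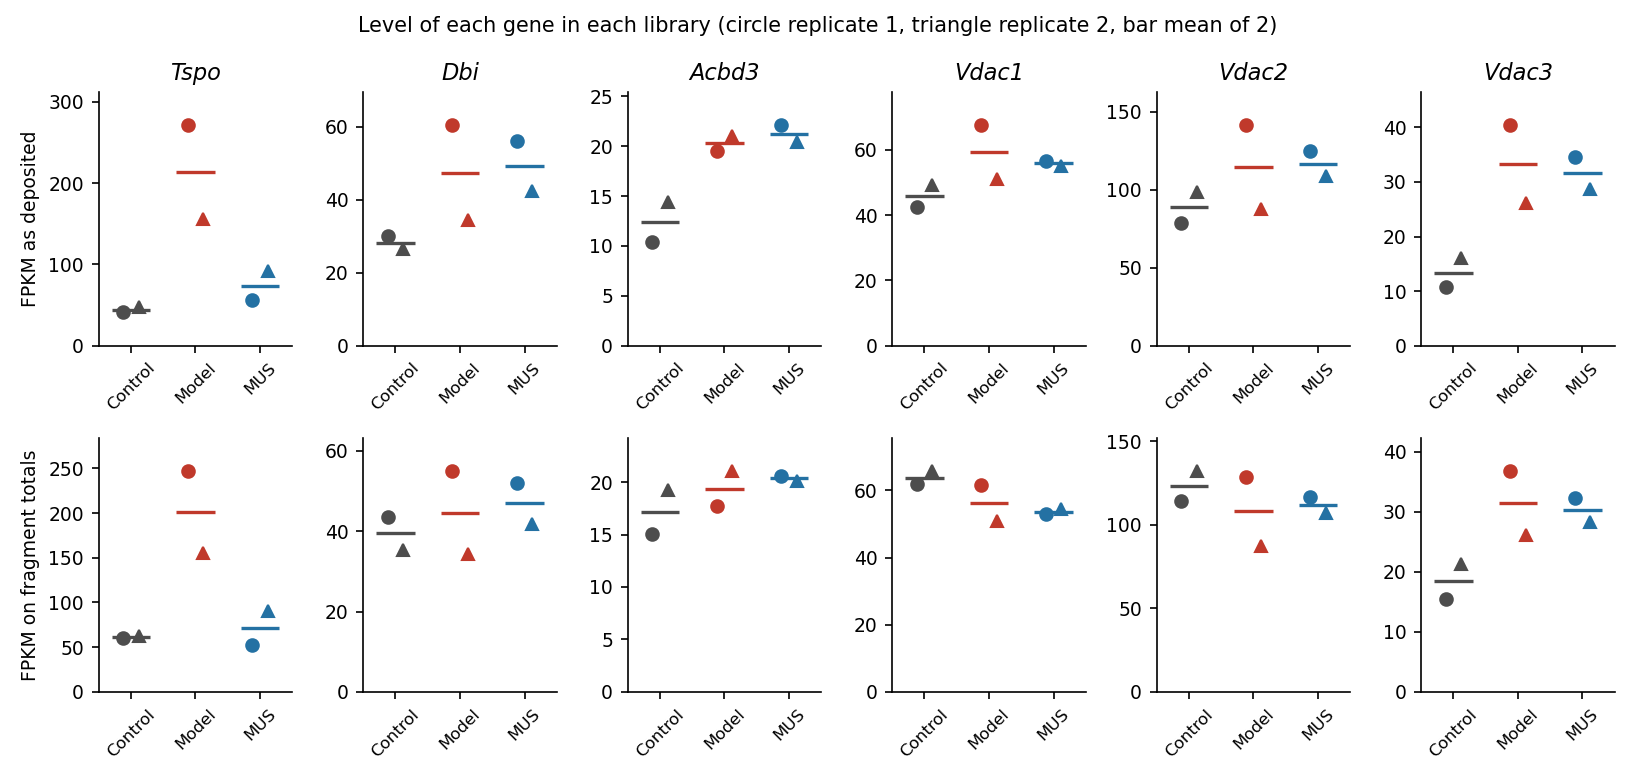
Level of each of the 6 genes in each library, on a linear axis that starts at 0. The upper row gives FPKM as deposited and the lower row fragment-total FPKM, with circles for replicate 1, triangles for replicate 2 and bars for the mean of the 2 libraries of a group. Tspo was 271 and 155 FPKM in Model against 41.6 and 47.0 in Control and 56.2 and 91.6 in MUS, whereas the MUS libraries of the other 5 genes overlapped those of Model.

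Tspo is also rich in G and C, with a GC content of 58.3%, above that of 93.6% of the genes tested. The GC content of the other 5 genes was 41.4% to 50.8%. Across the 9785 genes with a known sequence, which are not independent replicates, the log2 difference between MUS and Model went down with GC content (Spearman's rho = -0.38). The same association was larger between the 2 MUS libraries themselves (rho = -0.56 for replicate 1 minus replicate 2). In the decile of genes with the highest GC content, to which Tspo belongs, the median log2 fold change in MUS vs. Model was -0.38, against 0.13 in the decile with the highest median. After the dependence on GC content and gene length was removed from each library, Tspo had log2 fold changes of -1.08 in MUS vs. Model, 2.34 in Model vs. Control and 1.25 in MUS vs. Control. The corrected values were 32.0 and 43.4 FPKM in Control, 222 and 167 in Model, with 76.6 and 107 in MUS. They keep the deposited per-million scale, and on that scale the 3 groups did not overlap. The part of GC content in the change of Tspo was not tested beyond this correction.

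**Figure D2:**
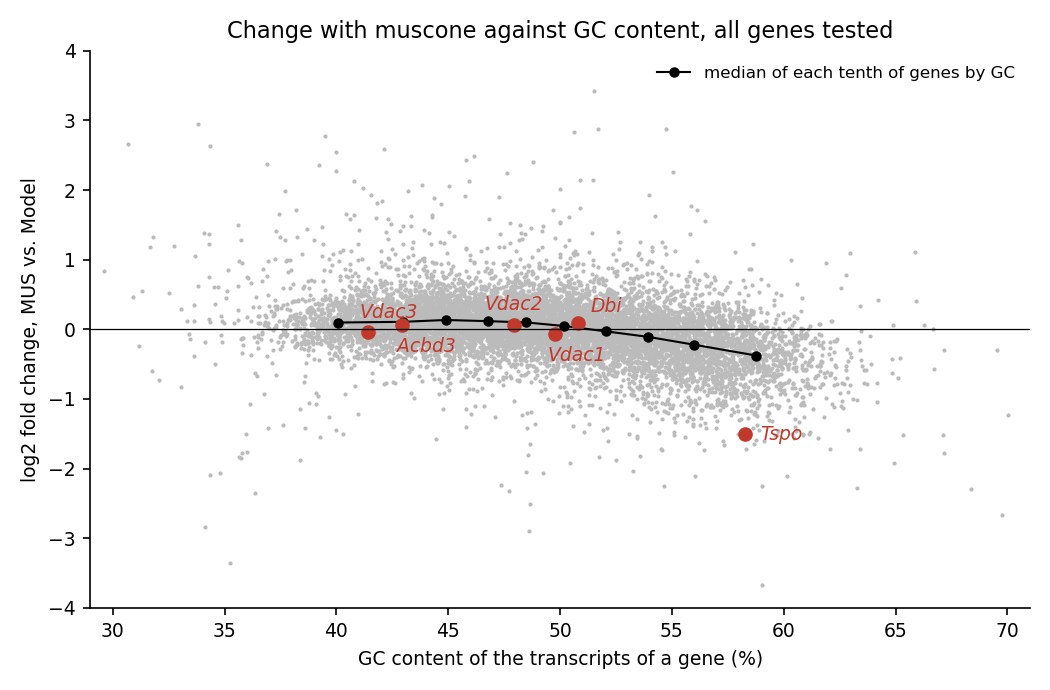
Log2 fold change in MUS vs. Model of all genes tested, by the GC content of their transcripts in percent. Grey points are genes, red points are the 6 genes described here and black points joined by a line are the medians of GC deciles. The axes leave out 7 genes. Tspo lies at 58.3% and -1.50, below the median of -0.38 of its decile, and the other 5 genes lie between -0.07 and 0.09.

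The first 196 bases of the Tspo gene overlap the start of Mcat on the opposite strand, a gene of mitochondrial fatty acid synthesis. The library protocol does not mark strand, so that fragments from the overlap cannot be assigned. Mcat was at 2.91 and 2.96 FPKM in Control, 4.86 and 3.41 in Model, with 2.34 and 2.58 in MUS, far below Tspo in every library.

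Dbi (ENSMUSG00000026385, chromosome 1, 120113280 to 120121078, minus strand), which encodes the ligand, was at 29.9 and 26.5 FPKM in Control, 60.4 and 34.3 in Model, with 55.9 and 42.3 in MUS. As deposited, Control was lowest, and the Model and MUS libraries overlapped. The difference in Model vs. Control, 0.67 on the log2 scale (SE 0.35, limma adjusted p = 0.220), did not pass the test. In fragment-total FPKM Control held 43.5 and 35.4, Model 54.9 and 34.2, and MUS 52.1 and 41.7, so that all 3 groups overlapped, and the difference was 0.14. Between MUS and Model the value was 0.09 (95% confidence interval -0.73 to 0.92, limma adjusted p = 0.969). The ratio of the FPKM of Dbi to that of Tspo was 0.720 and 0.565 in Control, 0.223 and 0.221 in Model, with 0.995 and 0.462 in MUS. The ratio was lowest in both Model libraries, and such ratios within a library do not depend on its per-million scale. It takes up the values for which Tspo was picked, so that it is a description and not evidence.

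Acbd3 (ENSMUSG00000026499, chromosome 1, 180726043 to 180754204, plus strand) was measured at 10.4 and 14.4 FPKM in Control, 19.5 and 21.1 in Model, with 22.1 and 20.4 in MUS. As deposited, Control was again lowest and the other groups overlapped. The log2 fold changes were 0.69 (SE 0.26, limma adjusted p = 0.112) in Model vs. Control and 0.75 (SE 0.26, limma adjusted p = 0.0735) in MUS vs. Control, neither of which passed. In fragment-total FPKM they were 0.17 and 0.25. On that scale Control held 15.0 and 19.2, Model 17.7 and 21.0, and MUS 20.6 and 20.1, so that Model replicate 1 fell within Control. Against Model, MUS gave 0.06 (95% confidence interval -0.54 to 0.67). The antisense gene Gm37768 lies over 10995 bases of the Acbd3 span, and its level was 3.85 and 5.52 FPKM in Control, 15.2 and 7.35 in Model, with 7.68 and 6.73 in MUS. Without strand, fragments of the overlap cannot be told apart.

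Vdac2 (ENSMUSG00000021771, chromosome 14, 21825238 to 21845879, plus strand) was the most abundant channel transcript in every library. It had 78.6 and 98.8 FPKM in Control, 142 and 87.7 in Model, with 125 and 109 in MUS, and Model replicate 2 fell within the range of Control. On the log2 scale Model vs. Control gave 0.34 (SE 0.35, limma adjusted p = 0.532) as deposited and -0.21 in fragment-total FPKM. Its sign in that comparison therefore rests on the scale. Comparing MUS with Model gave 0.06 (95% confidence interval -0.76 to 0.89).

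Vdac1 (ENSMUSG00000020402, chromosome 11, 52360860 to 52389397, plus strand) came second among the channels. It had 42.5 and 49.2 FPKM in Control, 67.6 and 51.1 in Model, with 56.8 and 55.1 in MUS. As deposited, Control was lowest, with a log2 fold change of 0.36 (SE 0.29, limma adjusted p = 0.415) in Model vs. Control. In fragment-total FPKM the order turned, since Control held 61.8 and 65.7, Model 61.5 and 51.0, and MUS 52.9 and 54.3, and Model vs. Control gave a log2 fold change of -0.18. For MUS vs. Model it was -0.07 (95% confidence interval -0.75 to 0.61).

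Vdac3 (ENSMUSG00000008892, chromosome 8, 22577075 to 22593813, minus strand) had 10.7 and 16.0 FPKM in Control, 40.4 and 26.1 in Model, with 34.6 and 28.8 in MUS. Both stimulated groups lay above Control and overlapped each other. Model vs. Control gave a log2 fold change of 1.25 (SE 0.33, limma adjusted p = 0.0416) and MUS vs. Control one of 1.21 (SE 0.33, limma adjusted p = 0.0377), and both passed the thresholds for a DEG. The value for MUS vs. Model was -0.04 (95% confidence interval -0.82 to 0.73). Within batch 1 the difference in Model vs. Control was 1.83 and within batch 2 it was 0.67. The call in Model vs. Control was lost without Control replicate 1 (0.98), without Model replicate 1 (0.95) or without either MUS library (1.25), and that in MUS vs. Control without Control replicate 1 (0.94), MUS replicate 1 (1.08) or MUS replicate 2 (1.34).

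The direction of Vdac3 held on the other scale, but the call did not. In fragment-total FPKM it was at 15.5 and 21.4 in Control, 36.7 and 26.1 in Model, with 32.3 and 28.4 in MUS. The log2 fold changes were then 0.73 (limma adjusted p = 0.0933) and 0.70 (limma adjusted p = 0.0983), which is 1.14 and 1.09 above the median of all genes tested. With the correction for GC content and gene length and the replicate number as a block, the values were 1.08 (limma adjusted p = 0.0687) in Model vs. Control and 0.90 (limma adjusted p = 0.0936) in MUS vs. Control. The pseudogene Vdac3-ps1 (chromosome 13, 18030741 to 18031593) was at 11.0 and 17.8 FPKM in Control, 30.5 and 16.9 in Model, with 27.4 and 24.0 in MUS, so that Model replicate 2 fell within Control. Its share of the signal of Vdac3 cannot be separated.

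Because the share of each channel within a library is free of the per-million scale, the makeup of the VDAC transcripts was compared. Vdac3 made up 8.09% and 9.76% of the summed VDAC FPKM in Control, 16.2% and 15.8% in Model, with 16.0% and 14.9% in MUS. The Control libraries lay below all 4 stimulated libraries, and Model and MUS overlapped. With the correction for GC content and gene length the shares were 9.35% and 9.84% in Control, 16.8% and 14.8% in Model, with 14.5% and 14.7% in MUS. Vdac2 held 59.6% and 60.2% in Control, 56.7% and 53.2% in Model, with 57.8% and 56.4% in MUS. For Vdac1 the shares were 32.3% and 30.0%, 27.1% and 31.0%, and 26.2% and 28.6%, with overlap between Control and Model. With 2 libraries against 2, an exact two-sided permutation test cannot give a p under 0.333, and the shares are given as values only.

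Tspo was also set against the channels. The FPKM of Tspo divided by the summed VDAC FPKM was 0.315 and 0.286 in Control, 1.09 and 0.941 in Model, with 0.260 and 0.476 in MUS. The MUS libraries lay on either side of Control, and the Model libraries lay above both groups. Since Tspo was picked for its values in these libraries, this ratio is a description and not evidence. With the correction for GC content and gene length the ratio was 0.231 and 0.256 in Control, 0.891 and 0.999 in Model, with 0.383 and 0.568 in MUS, and MUS then lay above Control.

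**Figure D3:**
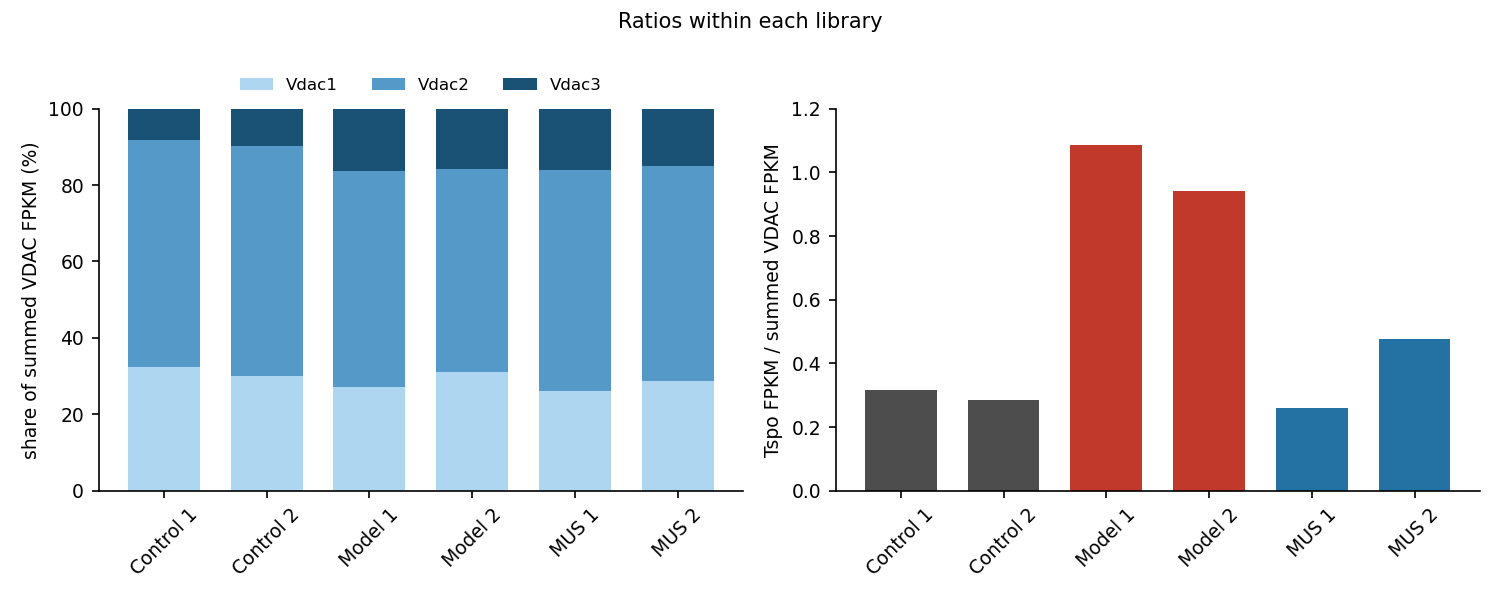
Ratios within each of the 6 libraries, from FPKM as deposited. The left panel stacks the shares of Vdac1, Vdac2 and Vdac3 in their summed FPKM, in percent, where Vdac3 took 8.09% and 9.76% in Control and 14.9% to 16.2% in the other libraries. The right panel gives Tspo FPKM divided by summed VDAC FPKM, which was 1.09 and 0.941 in Model and at most 0.476 elsewhere.

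The order of the 6 genes by level changed with treatment at 1 place, that of Tspo, which was picked for its values. In Control the order of the mean FPKM was Vdac2, Vdac1, Tspo, Dbi, Vdac3 and Acbd3, where Vdac1 and Tspo overlapped, as did Vdac3 and Acbd3. In Model Tspo came first and Vdac2 second, without overlap, and Vdac1, Dbi, Vdac3 and Acbd3 followed, of which Vdac1 overlapped Dbi and Dbi overlapped Vdac3. In MUS the order was Vdac2, Tspo, Vdac1, Dbi, Vdac3 and Acbd3, where Tspo overlapped Vdac1 and Vdac1 overlapped Dbi.

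Of the 5 genes other than Tspo, 1 was a DEG in Model vs. Control (Vdac3), where 15.1% of all genes tested were called. The count in MUS vs. Control was also 1 of 5 (Vdac3), where 20.2% were called. In MUS vs. Model 0 of 5 were called, as were 0% of all genes tested by limma. In that comparison 825 of 9794 genes had an unadjusted p under 0.05, the smallest adjusted p was 0.139, and voom on the recovered fragments also called 0 genes, whereas 4 genes were called with the replicate number as a block. Across all genes, 930 were called higher and 545 lower in Model vs. Control. In fragment-total FPKM the split was 646 of 2200 called genes higher.

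Genes were also counted by whether the libraries of 2 groups overlapped. Tspo was picked for its values in these libraries, and Vdac3 is on the study's list for Model vs. Control. Counts and medians that include them are descriptions and not evidence. In Model vs. Control both Model libraries lay above both Control libraries for 5 of 6 genes (all but Vdac2), as they did for 32.6% of all genes tested. In fragment-total FPKM this held for 2 of 6 (Tspo and Vdac3), against 15.6% of all genes, and 1 (Vdac1) lay below, as did 53.0% of all genes. In MUS vs. Model only Tspo, picked for such values, lay below, beside 21.0% of all genes. In MUS vs. Control all 6 lay above, as did 39.6% of all genes, whereas in fragment-total FPKM 2 (Acbd3 and Vdac3) lay above, against 21.0% of all genes, and 1 (Vdac1) below, against 57.2%. As deposited, the median log2 fold change of the 6 genes was 0.68 in Model vs. Control, beside 0.04 for all genes tested. In fragment-total FPKM it was 0.16, beside -0.40. In MUS vs. Model the medians of the 6 genes and of all genes tested were both 0.01. Any 2 of the 3 comparisons share the libraries of a group, so that they are not independent of each other.

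**Figure D4:**
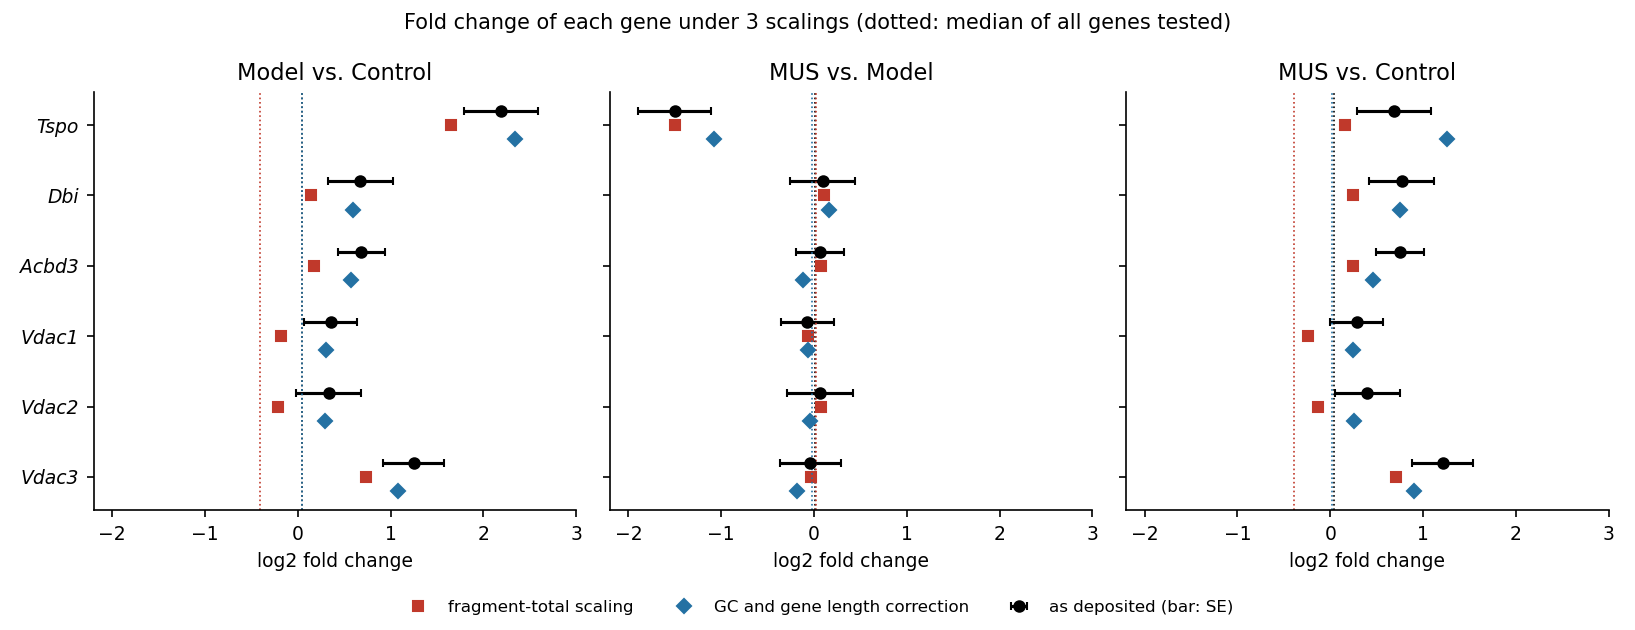
Log2 fold change of the 6 genes in the 3 comparisons, as deposited (black, bars are SE from limma), in fragment-total FPKM (red) and after the correction for GC content and gene length (blue). Dotted lines give the median of all genes tested under each scaling. In MUS vs. Model, Tspo lay at -1.50, -1.49 and -1.08, and the other 5 genes lay between -0.18 and 0.16 under all 3.

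The 5 genes whose profile over the 6 libraries was most like that of Tspo were Dusp2, Mt1, Lag3, Tmed1 and Gm16378. Likeness was measured as the root mean square difference of log2(FPKM + 1) after each gene was centred on its own mean. It was 0.261 for Dusp2, a phosphatase of MAP kinases, 0.268 for Mt1, a metallothionein, 0.285 for Lag3, an inhibitory receptor, 0.302 for Tmed1, a protein of vesicle transport, and 0.308 for Gm16378. Dusp2 held 6.05 and 6.39 FPKM in Control, 41.9 and 34.1 in Model, with 12.9 and 14.3 in MUS. Mt1 held 77.9 and 61.7, 301.7 and 163.4, and 75.7 and 107 FPKM in the same groups. As for Tspo, Model replicate 1 was the highest library for both. Lag3 was near the floor, at 0.0622 FPKM in both Control libraries, 3.80 and 2.94 in Model, with 0.659 and 2.04 in MUS. It passed the filter on low values through the stimulated libraries, and its likeness to Tspo depends on the 1 added before the log. The GC content of Dusp2, Lag3 and Tmed1 was 57.0% to 59.3%, close to that of Tspo, whereas that of Mt1 was 54.6% and that of Gm16378 46.2%.

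Relatives of Tspo and Dbi were low in these cells. Tspo2, the paralogue of Tspo, had 1 fragment in Model replicate 1 and 0 in the others, and Dbil5 and Acbd7, relatives of Dbi, were at 0 in all but 1 library. Of the 7 genes in the list of acyl-CoA-binding relatives with Tspo2, 3 were tested and 0 were called in any of the 3 comparisons. Of all genes tested, 15.1% were called in Model vs. Control, 0% in MUS vs. Model and 20.2% in MUS vs. Control. The median log2 fold change of the 3 genes was -0.26 in Model vs. Control and 0.05 in MUS vs. Model. The most abundant were Acbd5, a peroxisomal tether, at 7.42 and 6.37 FPKM in Control and 3.10 to 4.16 in the other libraries, and Eci2, an enzyme of fatty acid oxidation. In Model vs. Control, Acbd5 had a log2 fold change of -0.82 (limma adjusted p = 0.0470), short of the fold required of a DEG, and that of Eci2 was -0.19.

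Of 13 genes of VDAC partners and their relatives, 11 were tested. In Model vs. Control 2 rose and 0 fell, where 15.1% of all genes tested were called, and the same was true in MUS vs. Control, where 20.2% were. These counts are near the shares over all genes. Hk2, a hexokinase that docks on VDAC and phosphorylates glucose, was at 7.88 and 12.9 FPKM in Control, 26.5 and 35.5 in Model, with 40.8 and 47.1 in MUS. Its log2 fold changes were 1.51 (limma adjusted p = 0.0212) and 2.01 (limma adjusted p = 0.00687) against Control, whereas its value of 0.50 relative to Model did not pass (limma adjusted p = 0.734). Itpr1, an IP3 receptor that is coupled to VDAC1 at contacts between endoplasmic reticulum and mitochondria, was at 0.683 and 0.687 FPKM in Control, 2.19 and 3.91 in Model, with 3.55 and 3.77 in MUS. Its log2 fold changes were 1.23 (limma adjusted p = 0.0212) in Model and 1.47 (limma adjusted p = 0.00937) in MUS against Control. Both calls in Model vs. Control were lost in most fits that left out 1 library, 5 of 6 for Hk2 (all but that without Control replicate 2) and 4 of 6 for Itpr1 (without Control replicate 1, Model replicate 2 or either MUS library), with log2 fold changes of 1.19 to 1.83 and 0.92 to 1.54. Both calls in MUS vs. Control were lost without MUS replicate 1 and without MUS replicate 2, where the log2 fold change of Hk2 was 2.11 and 1.91 and that of Itpr1 at least 1.43. Over the other settings the call in Model vs. Control was lost in 4 of 14 for Hk2 and in 5 of 13 for Itpr1, whose log2 fold change ran from 0.49 with a pseudocount of 5 to 1.95 with one of 0.1. In fragment-total FPKM neither passed both thresholds in Model vs. Control (log2 fold changes 1.01 and 0.97, limma adjusted p = 0.0517 and 0.0448). The most abundant genes of the list were Hk3 and Slc25a5, an ADP/ATP carrier of the inner membrane. Hk3 is a relative of Hk2 and is not taken here to dock on VDAC. In Model vs. Control the log2 fold change was 1.02 for Hk3 (limma adjusted p = 0.0691) and 0.23 for Slc25a5. Over the list the median was 0.03 in this comparison and 0.24 in MUS vs. Model.

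Of 12 genes of protein import and assembly in the outer membrane, 10 were tested and 0 were called in each of the 3 comparisons. The shares called over all genes tested were 15.1% in Model vs. Control, 0% in MUS vs. Model and 20.2% in MUS vs. Control. The median of the 10 genes was 0.39 on the log2 scale in Model vs. Control, and in MUS vs. Model it was -0.11. Tomm22, a receptor of the import complex, was at 27.4 and 28.8 FPKM in Control, 78.0 and 39.3 in Model, with 51.3 and 47.1 in MUS (Model vs. Control 0.96 on the log2 scale, limma adjusted p = 0.116). Tomm5, a small subunit of the same complex, had a log2 fold change of -0.11.

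Of 10 genes of mitochondrial cholesterol handling, a process in which TSPO has long been studied, 7 were tested. In Model vs. Control 1 rose and 0 fell, where 15.1% of all genes tested were called. In MUS vs. Model and in MUS vs. Control 0 were called, where the shares over all genes were 0% and 20.2%. Stard3, which encodes a cholesterol transfer protein of late endosomes, rose in Model vs. Control with a log2 fold change of 1.77 (limma adjusted p = 0.00742). It was at 12.2 and 14.1 FPKM in Control, 45.9 and 48.5 in Model, with 22.3 and 29.8 in MUS, and both MUS libraries lay between the other groups. The difference between MUS and Model, -0.85 on the log2 scale, did not pass (limma adjusted p = 0.463). The call of Stard3 in Model vs. Control held under all 14 other settings and all 6 fits without 1 library. Prkar1a, a regulatory subunit of protein kinase A and the most abundant of the list, had a log2 fold change of 0.42. Star had at most 0.712 FPKM, and Cyp11a1, the enzyme that opens steroid synthesis, was at 0 in all libraries but 1. Over the 7 genes the median was 0.16 in Model vs. Control and -0.16 in MUS vs. Model.

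Of 13 genes of haem and porphyrin handling, 12 were tested. In Model vs. Control 0 rose and 1 fell, where 15.1% of all genes tested were called. This was Fech, the enzyme that inserts iron into porphyrin. Fech was at 13.2 and 9.78 FPKM in Control, 4.18 and 5.38 in Model, with 4.84 and 5.71 in MUS (log2 fold change -1.11 in Model vs. Control, limma adjusted p = 0.0251). The call was lost in 4 of 6 fits, those without replicate 1 of Control or Model or without either MUS library, with log2 fold changes of -1.31 to -0.91 over the 6. It was also lost in 3 of 14 other settings, at -0.75 with a pseudocount of 5. In MUS vs. Control 0 rose and 3 fell, where 20.2% of all genes tested were called. Among those that fell were Blvra (-1.45, limma adjusted p = 0.0274) and Alad (-1.13, limma adjusted p = 0.0169). Both calls were lost without Control replicate 1 or either MUS library, at -1.85 to -1.05 and -1.28 to -0.97 over the 6 fits. The call of Blvra was lost in 1 of 14 other settings (no filter on low values, limma adjusted p = 0.126). That of Alad was lost in 5 of 13, and its log2 fold change was -0.56 both with the correction for GC content and gene length and with a pseudocount of 5. Alad acts early in haem synthesis and Blvra reduces biliverdin, a product of haem breakdown. The most abundant genes were Hmox1, haem oxygenase, and Alas1, which opens haem synthesis, with log2 fold changes of -0.07 and 1.37 (limma adjusted p = 0.109) in Model vs. Control. Over the list the median was -0.25 in Model vs. Control and -0.18 in MUS vs. Model, and 0 of its genes were called in MUS vs. Model.

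**Figure D5:**
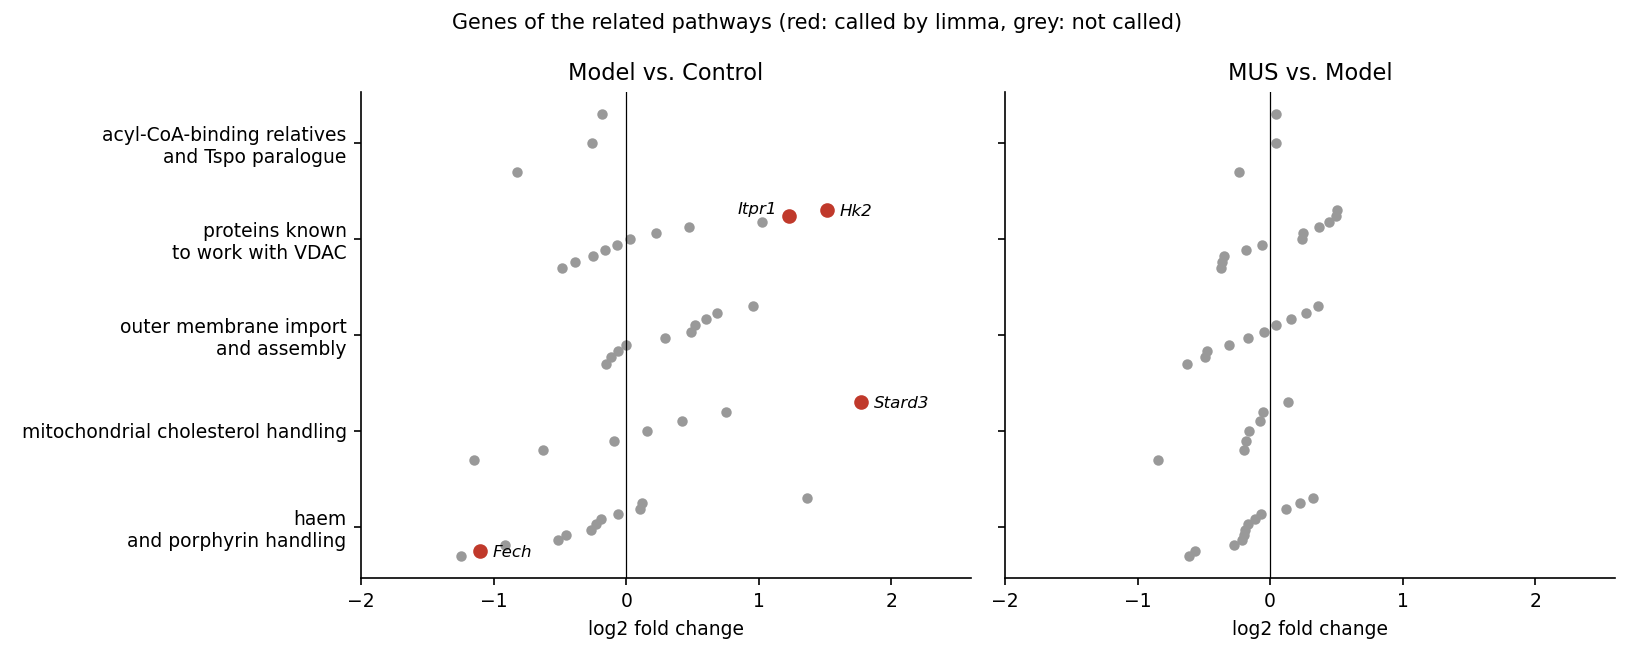
Log2 fold change of the genes tested in each of 5 lists, in Model vs. Control and in MUS vs. Model, as deposited. Red points were called by limma and grey points were not. Hk2, Itpr1 and Stard3 were called higher and Fech lower in Model vs. Control, and 0 genes of these lists were called in MUS vs. Model.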

How the data were processed

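RNA-seq was performed on 6 libraries, 2 in each of 3 groups, grouped by the sample labels. The authors deposited FPKM per gene and library. The study's methods name RSEM, whereas the submitters' processing notes name HISAT2, featureCounts 1.5.0-p3 and the build GRCm39. Start and end were the same as in GENCODE M21 for 98.3% of the 54495 genes shared with it, so positions are given on GRCm38. The product of FPKM and gene length fell on whole steps (tolerance 0.1 of a step) for at least 99.99% of values, which gave the fragments per gene. Fragment numbers cover counting error only.

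From these values, limma 3.58.1 in R 4.3.3 (lmFit, contrasts.fit, eBayes with trend) was fitted to log2(FPKM + 1) in 1 model of all 6 libraries, for the 9794 genes whose mean FPKM reached 1 (3 residual and 4.04 prior degrees of freedom). p-values were two-sided and Benjamini-Hochberg adjusted over all 9794 genes. DEGs had to reach the study's thresholds, an adjusted p of 0.05 or less and a log2 fold change over 1 in either direction. The study applied these thresholds to DESeq2, whereas a DEG here is a call by limma on FPKM, so that the counts are not alike. GC content came from GENCODE M21 transcripts, and its correction used lowess with a span of 0.4. The fit was tested on simulated data. The pass was set on data with a smaller spread than these libraries, so that it does not vouch for the calls given here. Tables and figures were made in Python 3.11.15 with pandas 2.3.3, SciPy 1.17.1, Biopython 1.88 and Matplotlib 3.10.9.

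The batch number of each library equals its replicate number, and libraries were paired by that number. Across genes, the differences between replicates 1 and 2 correlated between Control and Model with r = 0.12, between Model and MUS with r = 0.14, and between Control and MUS with r = -0.09. These values are low and do not show that libraries with the same number were prepared together. The replicate number was a block in an alternative, and within-batch differences are given.

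The members and lists were chosen with earlier results of these data known. Named genes are the 6 members, genes overlapping them, abundant pseudogene copies, called genes of each list (at most 4), its 2 most abundant tested genes and the 5 genes most like Tspo. Further genes named were chosen after their values were seen. One gene that this rule would name is not reported here. Alternatives were another pseudocount or filter, other scalings, voom, 2-group fits, no trend, corrections for GC content and length, and each library left out.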

Additional observations from a re-analysis of the deposited data

How the results depend on the processing

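The per-million scale of the Control libraries differs from that of the other groups, and with 2 libraries a group 1 library can decide a call. Tspo was picked for its values, so that its ranges describe the processing and are not evidence. Its sign was the same under all 14 other settings. The log2 fold changes ran from 1.38 to 2.34 in Model vs. Control and from -1.51 to -1.08 in MUS vs. Model. In MUS vs. Control they ran from 0.04 to 1.25, and the lowest gives no clear direction. Those within 1 residual SD of the main value were 10, 14 and 8 of 14, in this order. Without 1 library the ranges were 1.79 to 2.59, -1.90 to -1.10 and 0.34 to 1.04. Each of the 6 genes had at least 755 fragments in every library.

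The count of called members, 1 (Vdac3), was 0 in Model vs. Control with no filter on low values, quantile normalization, fragment-total scaling, rescaling without mitochondrial and the 20 highest genes, voom, only the 2 groups compared, and the GC and length correction with the replicate block. In MUS vs. Control it was 0 under the same settings except the 2-group fit, and also with the GC and length correction alone. The replicate block alone kept Vdac3 (limma adjusted p = 0.0490 and 0.0435) and changed no other call of a member. Without 1 library the count was 0 to 1. In Model vs. Control it was 0 without Control replicate 1, Model replicate 1 or either MUS library, and in MUS vs. Control without Control replicate 1 or either MUS library. The log2 fold change of Vdac3 without 1 library was 0.95 to 1.56 and 0.94 to 1.48.

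Genes called in Model vs. Control numbered 824 with a pseudocount of 5, 260 with no filter, 2374 after rescaling, 2734 with voom and 797 in the 2-group fit, and 692 to 2077 without 1 library. In MUS vs. Model, against 0, they numbered 1 with a pseudocount of 0.1, 7 in the 2-group fit, 4 with the replicate block, 1 with the length correction, and 0 to 31 without 1 library. In MUS vs. Control they numbered 1025 with a pseudocount of 5, 456 with no filter and 3144 with voom, and 184 to 2398 without 1 library. Of the called genes in Model vs. Control, 707 of 1422 were higher with quantile normalization and 584 of 2374 after rescaling.

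Signs turned where values were small or the Control scale changed. Under quantile normalization, fragment-total scaling, rescaling and voom, in this order, Vdac1 in Model vs. Control had log2 fold changes of -0.34, -0.18, -0.27 and -0.19, and Vdac2 of -0.41, -0.21, -0.29 and -0.21. In MUS vs. Control the values were -0.35, -0.24, -0.25 and -0.25 for Vdac1 and -0.31, -0.13, -0.14 and -0.13 for Vdac2. In MUS vs. Model, Vdac3 was 0.0075 under quantile normalization and 0.043 after rescaling, and Vdac1 was 0.013 after rescaling and 0.049 with the length correction. Acbd3 was -0.015 with the length correction and -0.11 with the GC and length correction, with or without the replicate block, under which Vdac2 was -0.040. Without 1 library, Vdac2 in Model vs. Control ran from -0.0073 to 0.68, and in MUS vs. Model Vdac1 ran from -0.27 to 0.13, Vdac2 from -0.28 to 0.41, Vdac3 from -0.35 to 0.27 and Dbi from -0.31 to 0.49. The cause of the turned signs was not tested.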
